A study of Mus musculus with 3 samples.

Results

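The RNA-binding motif (Rbm) family is a set of genes named for the RNA recognition motif, a folded domain that grips short stretches of single-stranded RNA. Members were taken by name, as every non-control probe of the array whose gene name begins with Rbm followed by a digit or a small letter. That gave 73 probes for 37 genes, out of 27670 symbols and 41174 probes in all. The array uses older names for 9 of them, and current RefSeq symbols are used here: Rbm9 is Rbfox2, Rbm13 is Mak16, Rbm16 is Scaf8, Rbm21 is Tut1, Rbm35a and Rbm35b are Esrp1 and Esrp2, Rbmxrt is Rbmxl1, Rbm12b is Rbm12b1 and Rbmy1a1 is Rbmy. The name pattern uses no measured value, but the family itself was chosen from HP over control ratios of these arrays that were already known, so its ratios are given as a description.

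The embryos were mouse four-cell embryos in 3 pairs of pools. Oocytes were either held at 20 MPa of hydrostatic pressure (HP) for 60 min at 37 °C or kept alike without pressure, then fertilised and cultured to the four-cell stage. The sample labels give sperm injection (ICSI), whereas the series title speaks of in vitro fertilization. The HP pools held 44, 30 and 37 embryos and the control pools 36, 33 and 24 (replicates 1, 2 and 3), and each array held the HP pool in Cy5 and the control pool in Cy3. Dye and pressure therefore cannot be told apart. Strain and age are not given in the sources used here, and the embryos of a pool were not measured singly.

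Proteins of this family act at nearly every step in the life of an RNA. Some choose splice sites, some mark spliced or methylated messages, some feed nuclear RNA to the exosome, and some build ribosomal subunits in the nucleolus. The early mouse embryo relies on such proteins because it runs for a time on messages stored in the oocyte before its own genome takes over.

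A probe on this array is a 60-base DNA oligo, and several genes of the family are read by more than 1. The sequences below show how probes of 1 gene can lie apart or overlap, and what a tested probe looks like. Both Rbm12b probes printed here, of 3 for this gene, come from 1 place on chromosome 4 of the mm7 build. They share 27 bases, with a single mismatch that is printed in capitals (G45T, counted from the 5′ end of A_51_P163173). Rbm12b has a closely related neighbouring copy in the mouse, so the value of this gene is uncertain. These probes were also chosen because each has 1 reading frame without a stop codon across the probe.
Rbm12b A_51_P163173 (chr4:12073578-12073637, plus strand, never tested): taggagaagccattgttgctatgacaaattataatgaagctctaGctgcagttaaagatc
Rbm12b A_52_P478289 (chr4:12073611-12073670, plus strand, tested): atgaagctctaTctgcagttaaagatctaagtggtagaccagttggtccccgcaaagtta
Rbm28 A_52_P26976 (chr6:29092200-29092259, minus strand, not tested): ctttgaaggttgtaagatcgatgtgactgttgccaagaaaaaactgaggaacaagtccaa
Rbm28 A_52_P520742 (chr6:29091006-29091065, minus strand, not tested): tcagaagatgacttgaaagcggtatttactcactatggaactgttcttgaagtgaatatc
Rbm17 A_51_P515496 (chr2:11524854-11525018, minus strand, tested): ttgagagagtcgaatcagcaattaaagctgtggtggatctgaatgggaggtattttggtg
Rbm8a A_52_P355014 (chr3:96504860-96504919, plus strand, tested): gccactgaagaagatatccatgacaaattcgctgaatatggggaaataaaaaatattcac
The 2 Rbm28 probes printed lie upstream of the pair that carries the signal of that gene, described with its values. The span of the Rbm17 probe on the genome is longer than its 60 bases.

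Not all of the family was measurable. A probe was tested where the scanner software called it well above background on 2 or more of the 3 arrays within a channel. By that filter 31 of 73 Rbm probes (42.5%, against 20.9% of all probes) and 26 of 37 genes were tested. The remaining 11 genes had no tested probe: the brain and testis splicing factor Rbm11, the epithelial splicing regulator Esrp1, the mRNA stability factor Rbm38, the Y-linked Rbm31y and Rbmy, Rbmx2, Rbm34, Rbm41, and Rbms1, Rbms2 and Rbms3. Well above background in both pools on all 3 arrays were 23 probes of 21 genes, and 30 probes were not well above background in any pool. Fewer Rbm probes were called in each HP pool than in its partner, with 26 against 31 on replicate 1, 29 against 34 on replicate 2 and 27 against 30 on replicate 3. The same held over all spots, at 19.1% against 20%, 19.9% against 23.2% and 17.5% against 18.5%. No spot was saturated.

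Across the 26 genes, values ran mainly below those of control embryos. Ratios are log2 of HP over control after loess scaling within the array, and a gene is read by its brightest tested probe. The mean was below 0 for 20 genes (51.7% of all genes) and above 0 for 6, and 12 genes (46.2%) were lower in HP on all 3 arrays while 1 gene, Mak16, was higher on all 3. Over all 7254 genes tested the shares were 25.0% lower and 23.2% higher. Esrp2 and Rbm8a among the lower genes, and Mak16, passed the filter only through the group where they were brighter. So did Rbm22, whose mean was above 0 with mixed signs. Among the 21 Rbm genes well above background in both pools on every array, 10 were lower and 0 higher on all 3 (25.1% and 25.7% of all such genes), with a median of −0.35. The median was −0.27 over the family and −0.013 over all genes. By array it was −0.33, −0.24 and −0.060, against −0.018, −0.011 and 0.0043 for all genes. On replicates 1, 2 and 3, 20, 19 and 16 of the 26 genes were below 0. The share of all genes below 0 was not counted by array. On replicate 3 the family median lay nearest to that of all genes.

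**Figure D1:**
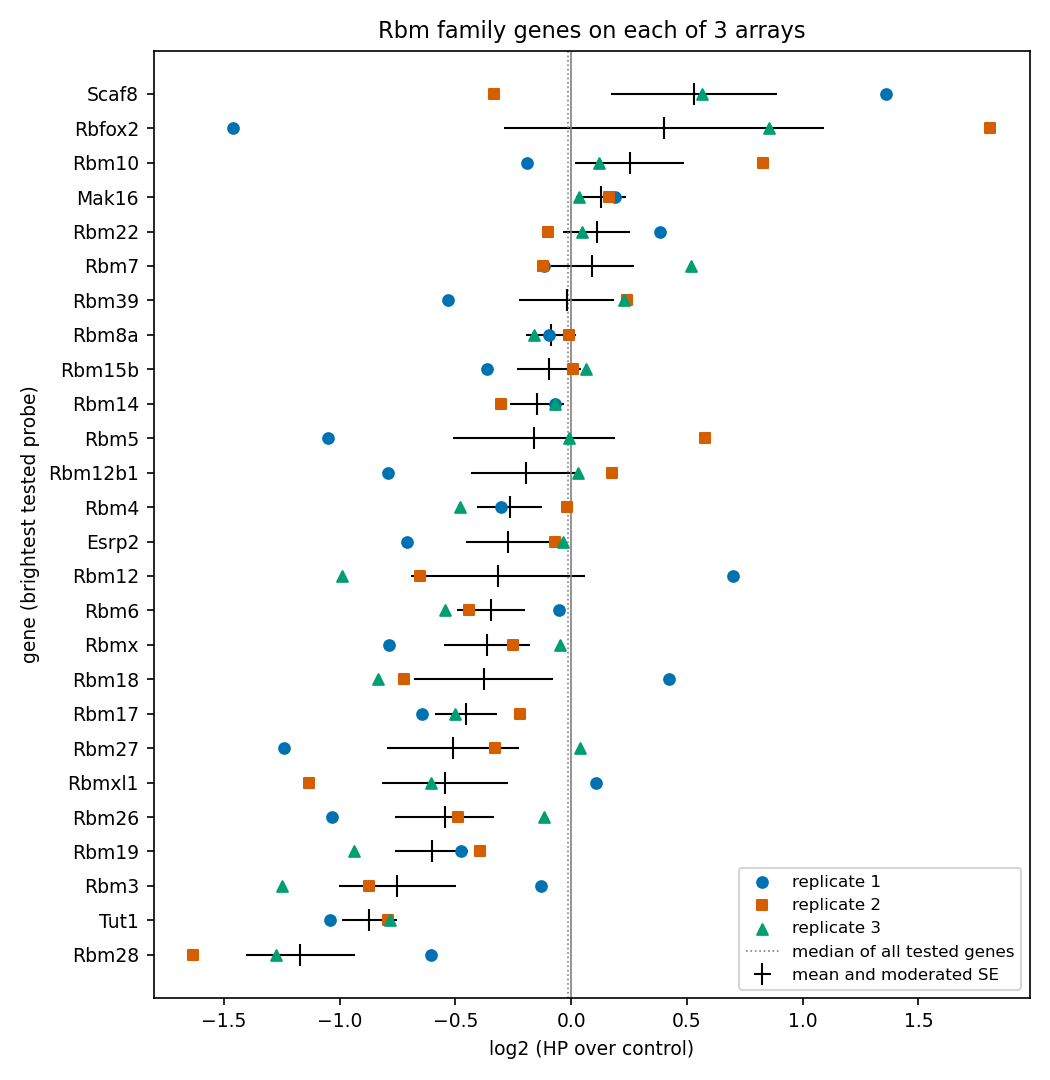
Log2 ratio of HP over control (horizontal axis) for each of the 26 tested Rbm genes (vertical axis), with 1 point per array, the mean and its moderated standard error in black, and a dotted line at the median of all tested genes (−0.013). Rbm28, Tut1, Rbm3 and Rbm19 lie lowest with all 3 points below 0, whereas the points of Rbfox2, Scaf8, Rbm12 and Rbm18 fall on both sides of 0.

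No gene passed adjustment. Limma with Benjamini-Hochberg adjustment over all genes gave 0 of 7254 genes (0%) below an adjusted p of 0.05, and so 0 Rbm genes. The smallest adjusted p of any gene was 0.174. At an unadjusted limma p under 0.05 there were 5 Rbm genes lower (Tut1, Rbm28, Rbm19, Rbm17 and Rbm3) and 0 higher. The shares over all genes were 11.2% lower and 7.25% higher. In fits that left out 1 array, the lower count was 8 without replicate 1, 4 without replicate 2 and 3 without replicate 3. The shares over all genes were not counted for those fits, so nothing about the family is read from these counts. Nothing in the labels says how the pools of a group were separated, so these p-values reflect only the spread of 3 pool pairs, which may be technical. In bulk pools fewer cells with a transcript and less of it per cell cannot be told apart.

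Of the nucleolar members, grouped after the values were seen, 2 were lower on all 3 arrays and 1 was higher (25.0% and 23.2% of all genes). Rbm28 had the lowest mean of the family by brightest probes. Rbm28, a nucleolar protein of large ribosomal subunit assembly, had log2 signals of 8.81, 7.47 and 7.77 in the HP pools and 9.42, 9.11 and 9.05 in the control pools of replicates 1, 2 and 3. Every HP pool lay below every control pool. The ratios were −0.60, −1.63 and −1.28, with a mean of −1.17 ± 0.23 (moderated SE, n = 3 arrays; 2.25-fold lower; limma adjusted p = 0.176). Rbm19, which processes ribosomal RNA and is needed for mouse development before implantation, read 7.60, 7.55 and 7.70 in HP and 8.08, 7.94 and 8.63 in control pools. These groups did not overlap either, and the mean was −0.60 ± 0.16 (−0.48, −0.39 and −0.94; 1.52-fold; limma adjusted p = 0.201). Mak16, another large subunit assembly factor, stood on the other side at 0.19, 0.16 and 0.033. Its probe was well above background in 2 HP pools and no control pool, so no fold is given. A second Mak16 probe gave −0.16 and −0.061 on replicates 1 and 2, with no value on replicate 3.

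Members that act on RNA tails, ends and decay ran both ways. Tut1, a nucleotidyltransferase that adds uridines to U6 small nuclear RNA and can also polyadenylate messages, had ratios of −1.04, −0.79 and −0.78. Its log2 signals were 8.57, 9.15 and 8.99 in HP pools and 9.62, 9.94 and 9.78 in control pools, without overlap. The mean was −0.87 ± 0.12 (1.83-fold lower; limma adjusted p = 0.174). Rbm26 and Rbm27 are related zinc finger proteins tied to nuclear RNA decay by the exosome, and their brightest probes gave similar means. Rbm26 was at −1.03, −0.49 and −0.12 (mean −0.55 ± 0.21), and Rbm27 at −1.24, −0.33 and 0.036 (mean −0.51 ± 0.29). In both genes replicate 1 was lowest and replicate 3 highest, and the HP and control pools overlapped. Scaf8, which binds the tail of RNA polymerase II and restrains early polyadenylation, was the highest of the family at 0.53 ± 0.36. It had 1.36 and 0.57 on replicates 1 and 3 but −0.33 on replicate 2. With median centring of the arrays its mean was −0.16, where the median of all genes was −0.39. Rbm7, the RNA-binding subunit of the nuclear exosome targeting complex, was at −0.12, −0.12 and 0.52.

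**Figure D2:**
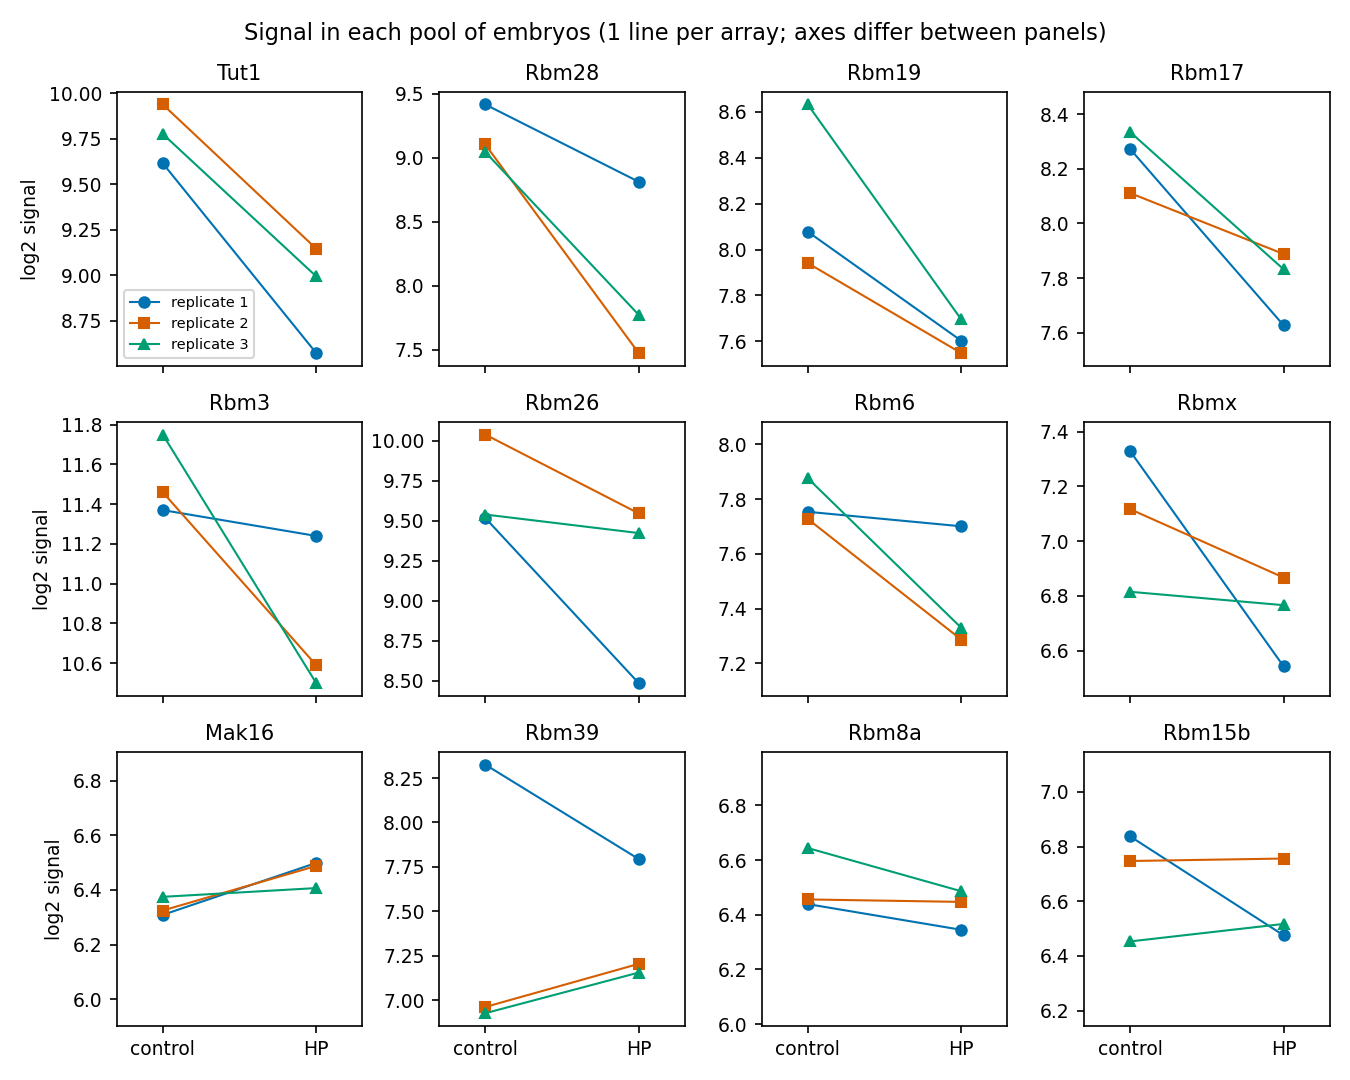
Log2 signal in the control and HP pools (vertical axis, scaled separately for each panel) for 12 Rbm genes, with 1 line per array joining the pools it held. The HP pools of Tut1, Rbm28, Rbm19, Rbm17, Rbm3 and Rbm6 all lie below the control pools of the same gene, those of Mak16 lie above, and those of the other 5 genes overlap.

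Splicing regulators made up the largest group, with 11 of 14 genes tested. Of these 5 were lower on all 3 arrays and none was higher on all 3 (25.0% and 23.2% of all genes), with a median of −0.27. Esrp2 is among the 5. Rbm17 (SPF45), a spliceosomal protein of splice site choice, read 7.63, 7.89 and 7.83 in HP and 8.27, 8.11 and 8.33 in control pools. No HP pool reached a control pool, and the mean was −0.46 ± 0.13 (−0.65, −0.22 and −0.50; limma adjusted p = 0.229). Rbm6 was at −0.054, −0.44 and −0.55, with 7.70, 7.29 and 7.33 in HP and 7.75, 7.73 and 7.88 in control pools. Here too the groups were apart, though by a small gap on replicate 1, and the mean was −0.35 ± 0.15 (limma adjusted p = 0.309).

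Rbm5 and Rbm10 are close relatives of Rbm6 in sequence and in exon choice. Rbm5 is the immediate neighbour of Rbm6 on chromosome 9 among protein-coding genes of the RefSeq table. Rbm5 gave −1.05, 0.58 and −0.0096, and Rbm10 gave −0.19, 0.83 and 0.12. So the 3 relatives did not run together, and the arrays of Rbm5 and Rbm10 disagreed in sign.

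Rbmx, or hnRNP G, and Rbmxl1, its intronless copy, can share labelled RNA where their sequences match. Rbmx was at −0.79, −0.25 and −0.050 (mean −0.36 ± 0.19), and Rbmxl1 at 0.11, −1.13 and −0.60 (mean −0.54 ± 0.27). The lowest array of each was thus a different one. Rbm4, which regulates splicing and translation, was at −0.30, −0.017 and −0.48. Esrp2, which drives epithelial exon choice, was at −0.71, −0.071 and −0.035, but it was not well above background in any HP pool and in 2 control pools, so no fold is given.

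The other tested splicing genes did not keep 1 sign. Rbfox2, which binds a short conserved motif beside exons, had the widest range of the family, with −1.46, 1.81 and 0.85 (mean 0.40 ± 0.69). Its HP signals were 7.39, 8.47 and 8.40 and its control signals 8.85, 6.66 and 7.55, so both pools moved between arrays. Rbm39, a partner of the 3′ splice site factor U2AF, was at −0.53, 0.24 and 0.23. Rbm22, a protein of the catalytic spliceosome, was at 0.38, −0.10 and 0.045. It was well above background in 3 HP pools but only 1 control pool.

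Rbm3, a small RNA-binding protein known for its induction by cold, was lower in HP on all 3 arrays, least so on replicate 1. Its log2 signals were 11.24, 10.59 and 10.50 in HP pools and 11.37, 11.46 and 11.75 in control pools. The groups did not overlap, but on replicate 1 the gap was 0.13 while on replicates 2 and 3 it was 0.87 and 1.25. The mean was −0.75 ± 0.25 (1.68-fold lower; limma adjusted p = 0.256). The second probe of Rbm3 was not well above background in any pool, so this value rests on 1 probe.

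Both tested members that mark messages had dim or mixed readings. Rbm8a (Y14), a core subunit of the exon junction complex left on spliced RNA, was at −0.094, −0.0086 and −0.16. Its HP signal was not well above background in any pool, against 2 control pools that were, so no fold is given. Rbm15b, which brings the N6-methyladenosine writer to its targets, was at −0.36, 0.0087 and 0.064. Rbm14, a paraspeckle protein and transcriptional coactivator, is the neighbour of Rbm4 on chromosome 19. Rbm14 was at −0.071, −0.30 and −0.070 (mean −0.15 ± 0.12). Rbm12 and Rbm18 were above 0 on replicate 1 (0.70 and 0.42) and below 0 on replicates 2 and 3 (−0.65 and −0.99 for Rbm12, −0.72 and −0.83 for Rbm18). Rbm12b1 gave −0.79, 0.18 and 0.030.

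All HP pools lay below all control pools for 6 of the 26 genes (23.1%), namely Tut1, Rbm28, Rbm19, Rbm17, Rbm3 and Rbm6. They lay above for Mak16, which was not well above background in any control pool. Over all genes the shares were 13.2% below and 13.3% above. No Rbm probe differed at least 2-fold on every array, a rule met by 0.221% of all probes lower and 0.128% higher. At least 1.5-fold lower on every array were 3 Rbm probes, against 1.89% of all probes. They were those of Tut1, the brightest of Rbm28 and a second probe of Rbm26. None was at least 1.5-fold higher on every array (1.16% of all probes).

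The arrays did not always share a sign. In 8 genes (Rbfox2, Rbm10, Rbm12, Rbm12b1, Rbm15b, Rbm18, Rbm39 and Rbmxl1) replicates 2 and 3 had 1 sign and replicate 1 the other, as in 25.4% of all genes. Replicate 2 stood alone in 3 genes and replicate 3 in 2 (11.8% and 14.5% of all genes). Of all pairs of pools, HP replicates 2 and 3 were the most alike, with an SD over genes of the log2 difference of 0.231, against 0.463 to 0.642 for the other pairs. With those replicates averaged and counted as 1, 13 genes were lower in both values and 2 were higher (33.3% and 30.5% of all genes), and the median was −0.28. Without replicate 1, 15 genes were lower and 6 higher on both arrays left (36.8% of all genes each way), with a median of −0.15.

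Several probes of a gene often did not read alike. Of 24 Rbm genes with more than 1 probe, 19 had a tested probe, and in 15 of these exactly 1 probe was tested. In 17 genes with tested and untested probes on 1 strand of the mm7 map, the most downstream probe was a tested one in 12. The same count was not made over all genes, so it is not read as a trait of the family. The genes whose most downstream probe was not tested were Rbm3, Rbm8a, Rbm14, Rbm26 and Rbmx. Means of untested probes lay between −0.28 and 0.045.

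Of the 4 genes with several tested probes, only Rbm28 had probes of 1 mean sign. Its lower pair, A_51_P437786 (chr6:29057420-29057479) and A_51_P437787 (chr6:29057466-29057525), share 14 bases at the far downstream end of the gene. The former gave −1.17 ± 0.23. The latter gave −0.53, −0.98 and −0.41, a mean of −0.64 ± 0.16. Both were lower on all 3 arrays. The upstream probes whose sequences are printed above gave means of −0.047 and 0.021, and neither was well above background in more than 1 pool of a group. The overlap means that the 2 downstream probes are not independent readings.

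Rbm26 was read by 5 probes. The brightest, A_51_P106952 (chr14:99544393-99544452), gave −0.55. A_52_P272248 (chr14:99539244-99539303), which lies downstream of it, gave −1.75, −1.25 and −0.86, a mean of −1.29 ± 0.21, with HP signals of 7.40, 7.72 and 7.81 and control signals of 9.15, 8.97 and 8.67. On this probe all HP pools lay below the lowest control pool. The third tested probe, A_52_P329105, was above background in 1 HP and 2 control pools. It gave 0.030, −0.16 and 0.17, a mean of 0.012, so its opposite sign rests on a dim probe near 0. Both of the probes with strong signal ranked the arrays alike, with replicate 1 lowest. For Rbm39 the second probe gave 0.13, 0.0062 and −0.11. The means of its 2 tested probes, −0.020 and 0.0068, had opposite signs but both lay near 0.

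**Figure D3:**
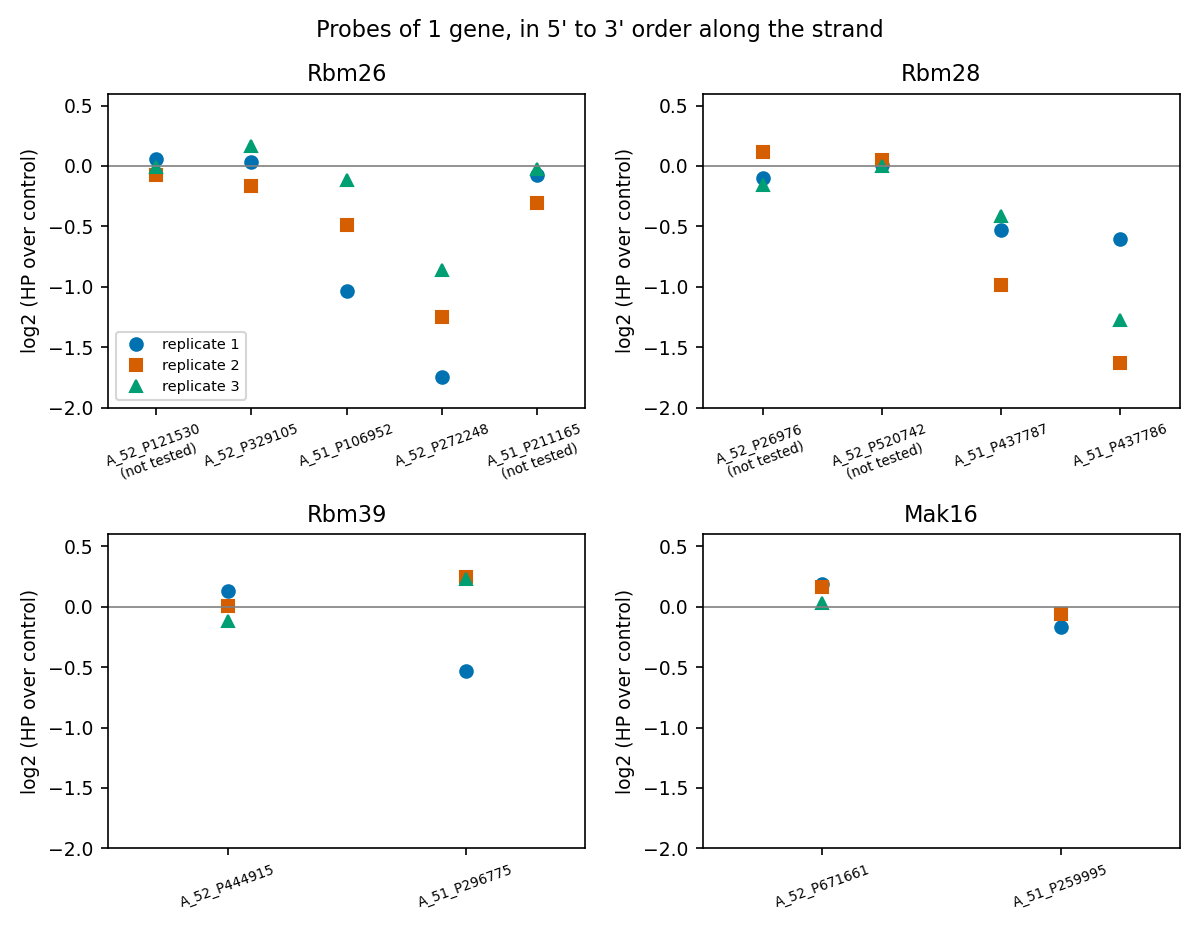
Log2 ratio of HP over control (vertical axis) on each array for every probe of the 4 Rbm genes with several tested probes, ordered along the strand from upstream to downstream (horizontal axis). In Rbm28 the 2 downstream probes lie below 0 on all 3 arrays, and in Rbm26 the adjoining A_51_P106952 and A_52_P272248 do. The untested Rbm26 probe A_51_P211165 is also below 0 on all 3, with a mean of −0.14. It and the other Rbm28 and Rbm26 probes have means nearer 0.

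Sizes depended on the scaling. Loess removes the trend of the ratio with intensity, and median centring of each array leaves it in. With median centring the median of all genes was −0.39 and that of the Rbm genes −0.90, with 19 Rbm genes lower and 0 higher on all 3 arrays (59.0% and 3.57% of all genes). Tut1 was then at −1.73, Rbm28 at −1.92 and Rbm3 at −1.77. Limma then passed 9 Rbm genes and 1047 of all genes at an adjusted p of 0.05, all 9 lower: Rbm3, Rbm4, Rbm14, Rbm17, Rbm19, Rbm26, Rbm27, Rbm28 and Tut1. With the scanner software's own log ratios the medians were −0.49 for the family and 0.048 for all genes. By those ratios 10 of the 12 genes were again lower on all 3 arrays, without Rbm4 and Rbm6 (22.3% of all genes lower, 25.3% higher). There Esrp2, Mak16 and Rbm8a, each above background in only 1 of the 2 groups, moved the farthest, to −1.95, 1.41 and −1.17.

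**Figure D4:**
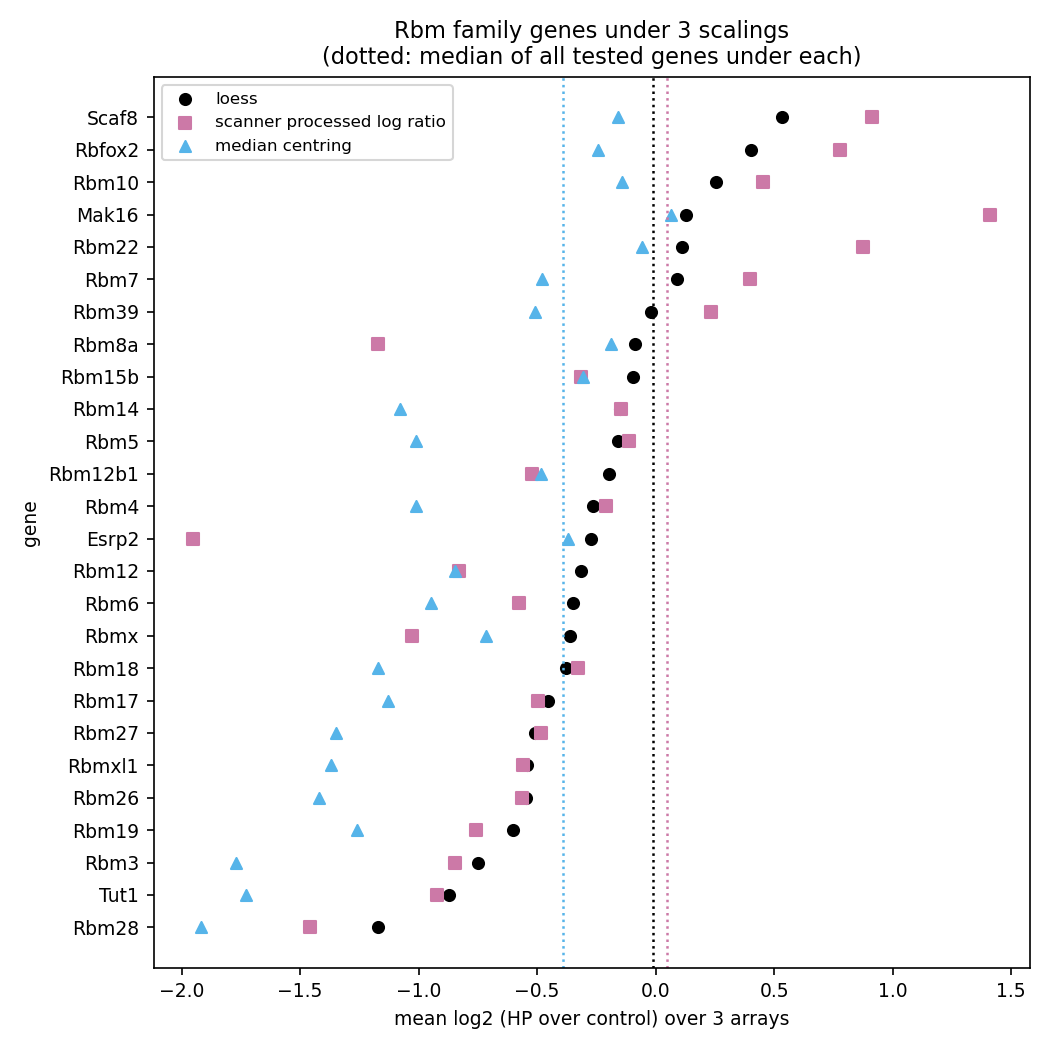
Mean log2 ratio of HP over control over 3 arrays (horizontal axis) for each tested Rbm gene (vertical axis) after loess, with the scanner software's processed log ratios and with median centring, and dotted lines at the median of all tested genes under each (−0.013, 0.048 and −0.39). Rbm28, Tut1, Rbm3 and Rbm19 lie left of the dotted line of each scaling, and the loess and scanner values lie far apart for Esrp2, Mak16 and Rbm8a.

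Genes that work with family members ran both ways after loess. After median centring, 10 of 11 SR, 16 of 18 exon junction and decay, and 5 of 5 methylation genes were below 0. Their medians were then −0.78, −0.33 and −0.69. With that scaling the median of all genes was itself −0.39. Means below 0 were not counted over all genes for that scaling, so nothing is read from these counts. By a stricter measure, 59.0% of all genes were lower on all 3 arrays. Of 11 tested SR proteins, the serine and arginine rich splicing factors, 5 had means below 0 (51.7% of all genes) and 6 above, with a median of 0.051. Srsf5 was at −0.63 ± 0.13 (−0.51, −0.85 and −0.52), and Tra2b, which promotes exon inclusion, at 0.74 ± 0.23 (0.42, 1.33 and 0.48). Among 18 tested genes of the exon junction complex and nonsense-mediated decay, 6 had means below 0 and 12 above, with a median of 0.056. Magoh, the partner of Rbm8a in that complex, was at 0.15, 1.11 and 1.05 (mean 0.77 ± 0.24; −0.34 with median centring). Smg5, a decay adaptor, was at −0.30 ± 0.13. Of 5 tested genes that write or erase N6-methyladenosine, Wtap, a writer subunit, was at −0.44 ± 0.18 and Alkbh5, an eraser, at 0.78 ± 0.15 (−0.15 with median centring). At an unadjusted limma p under 0.05 the 3 lists held 1 lower gene (Srsf5, 11.2% of all genes lower) and 3 higher (Tra2b, Magoh and Alkbh5, 7.25% higher), and 0 passed adjustment.

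The pools had signal for part of the oocyte and early embryo markers. Of 11 oocyte and early embryo markers on the array, 6 were tested (Zp3, Gdf9, Bmp15, Oog1, Dppa3 and Btg4). All 6 had means above 0 and 4 were higher in HP on all 3 arrays (23.2% of all genes), with a median of 0.47 after loess. With median centring 4 of the 6 were below 0, a share not counted over all genes. Their median was then −0.039, against −0.39 for all genes. Zp2, Nlrp5, Zar1 and Obox5 were not well above background in any pool, and Pou5f1 was in 1 control pool. Of 12 cumulus and granulosa cell markers 0 were tested and 11 were not well above background in any pool. Of the sperm markers 1 of 6, Prm1, was tested, at 0.19, −0.27 and −0.050.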

How the data were processed

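Agilent Feature Extraction 9.5.1.1 read the scans, and the array design places probes on mm7, per the file headers. Per the labels, 240 pg of total RNA from each pool was amplified in successive rounds before dye coupling. The deposited mean spot and median background signals are intensity values with no background subtracted, and the processed signal columns, also deposited intensity values, had background subtracted and dyes balanced by the scanner software, with surrogates for dim spots. The deposited log ratio is log10 of Cy5 over Cy3, and the authors' series table repeats it.

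Mean signals were background-corrected (normexp, offset 50) and loess-normalized within each array with control spots at weight 0, in limma 3.58.1 (R 4.3.3). Outlier spots were left out (172 to 325 an array), and spots of 1 probe were averaged. Of 41174 probes 8590 were tested, and a gene (7254) took its brightest tested probe, for Rbm genes among probes of that name. An intercept was fitted with empirical Bayes moderation (prior df 2.05, residual df 2). Signals per pool come from loess with Aquantile scaling. Between 17.5% and 23.2% of spots were well above background in a channel. The limma step was checked on simulated data. Symbols follow RefSeq (GRCm38.p6).

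Members, lists and settings were chosen with earlier results of these data known, and the grouping by role after the values were seen. The rule for named genes took the 8 lower genes of smallest p with 1 sign on all arrays, likewise higher, genes with several tested probes, Rbm8a, Rbm15, Rbm15b, Rbmx and Rbm3 where tested, and genes well above background on every array in 1 pool and never in the other, 12 in all. In each partner list it took the smallest p in each direction. Other genes were named after their values were seen. Rbm genes the array holds under other names (11, of which 3 tested) were not members.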

Additional observations from a re-analysis of the deposited data

How the results depend on the processing

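Of 17 other settings, leave-one-out included, none turned the median of the Rbm genes above 0 or reversed a named gene that had 1 sign on all 3 arrays. Under many settings such a reversal could not happen. A gene of 1 sign keeps it when an array is dropped, when replicates 2 and 3 are averaged, or when arrays are weighted or rescaled. Other moderation, separate channels and no filter on dim probes left the ratios of the named genes as they were. The series table repeats the scanner's ratios. The 12 named genes had the direction of the loess fit in 193 of 201 values (the others were Rbm39, near 0, and Rbm15b without replicate 1), and 182 lay within 1 SD of the arrays. Both counts include the settings that could not change a sign. The median was −0.90 with median centring, −0.49 with the scanner's ratios and with the series table, and −0.42 with an offset of 0. Without 1 replicate it ran from −0.30 to −0.15. Lower on every array were 19 genes with median centring (59.0% of all genes). Without 1 replicate the count ran from 13 to 15. It was 15 without replicate 1, where 36.8% of all genes were lower, against 25.0% on 3 arrays. Higher on every array were 0 with median centring and 0 with signal required in both channels (3.57% and 25.7% of all genes). The higher count was 2 with replicates 2 and 3 counted as 1 (30.5% of all genes) and 2 without the filter on dim probes. It ran from 1 to 6 without 1 replicate, with 6 without replicate 1 (36.8% of all genes). At an unadjusted limma p under 0.05 the lower count was 14 with median centring, and 3 with the scanner's ratios, the series table, an offset of 0, scale normalization or replicates 2 and 3 counted as 1. It was 3 to 8 without 1 replicate. The higher count was 1 with the scanner's ratios and the series table, and 0 to 1 without 1 replicate. All-gene shares were not computed for the unadjusted p counts under these settings, nor for the sign counts given without one. Those counts are not read as results about the family. At an adjusted p of 0.05 median centring passed 9 Rbm genes and 1047 of all genes, where the other settings passed 0. At 1.5-fold in place of 2-fold, 3 Rbm probes met the rule on every array. The cause of these shifts was not tested. The ratio already pairs the pools of an array, and with separate channels and no replicate block the median was −0.27 and the counts were 12 lower and 1 higher on all arrays. For 11 genes no probe had enough signal to be tested.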
